A study of Mus musculus with 12 samples.

Results

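A set of 6 genes of purine and NAD handling at the T cell surface was followed across the T cells of the pancreatic islets of NOD mice. They are Entpd1, Nt5e, Cd38, Art2b, P2rx7 and Adora2a, 6 of the 31053 genes counted in the series. They were chosen by name and function with earlier results of these data known, so counts of members called are no independent test. The cells came from pre-diabetic female NOD mice of 12 weeks, a strain in which the immune system destroys the insulin-producing beta cells without any induction, and live cells carrying the T cell receptor (TCR) had been sorted from islets. No group was treated or genetically altered, so every comparison lies between kinds of cell within the same 4 biological replicates. Each replicate gave an mRNA library that also counted antibody tags in the same cells (CITE-seq) and a library of TCR sequences. Whether a replicate came from 1 mouse or from several is not given in the labels, so p-values measure the spread between these 4 libraries, which may be partly technical.

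Cells can release ATP and NAD when they are stressed or damaged, and T cells read and remove both at their surface. Entpd1 encodes CD39, which cuts ATP and ADP to AMP, and Nt5e encodes CD73, which turns AMP into adenosine. Adora2a encodes an adenosine receptor, which raises cyclic AMP and dampens T cell activation. P2rx7 encodes P2X7, an ATP-gated channel whose opening is known to make T cells shed CD62L and can kill them. Art2b encodes the ecto-ADP-ribosyltransferase ARTC2.2, which uses NAD to modify and open P2X7 on mouse T cells, and Cd38 encodes the enzyme that breaks NAD down outside the cell. CD39 is best known on regulatory T cells (Treg), and it is also a recognised marker of chronically stimulated CD8 T cells.

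Cells were gated by the rule that defines the comparison. CD8 cells had a CD4 antibody count under 20 and at least 2 UMIs (unique molecular identifiers, each a captured mRNA molecule) over Cd8a and Cd8b1. CD4 conventional cells had a CD4 antibody count of at least 40 and no UMI of Cd8a, Cd8b1 or Foxp3, and Treg were the same with at least 1 Foxp3 UMI. An antibody count of CD62L of at most 3 was called low and of at least 10 high. CD62L is the lymph node homing receptor that naive and central memory T cells carry and that activated cells lose. The antibody counts were read from DNA barcodes coupled to each antibody, and these 4 oligonucleotides are shown because the CD4 count sets the lineage gates and the CD62L count the low and high gates, all bases in lower case with no part set apart.
CD4: aacaagacccttgag
CD62L: tgggcctaagtcatc
CD11a: agagtctccctttag
PE: aacctttgccactgc
The PE barcode stood for CD8b through a biotinylated antibody and was not used for gating, and CD11a is an integrin chain of T cells.

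Of 27423 deposited barcodes 21998 were kept, with a library median of 2634 to 4162 UMIs per cell, and they held 10890 CD4 conventional, 4129 CD8 and 1165 Treg cells. The remaining 5814 kept cells fell in no gate and were left out, at 516, 438, 2684 and 2176 in replicates 1 to 4. Ikzf2, a Treg gene outside the gate, was at 699 to 776 CPM (the gene's UMIs scaled to 1000000 UMIs of the summed cells) in Treg against 131 to 202 in CD4 conventional cells, while a CD3 UMI was required of every kept barcode. Replicates 3 and 4 stood apart from 1 and 2 in the antibody CD11a, with a count under 20 in 37.1% and 31.0% of kept cells against 5.26% and 6.89%. Pairs of libraries shared 36 to 102 barcodes. Summed B cell markers stayed at or below 14.6 CPM and myeloid markers at or below 15.8 CPM in the 3 populations. Summed endocrine markers were at 438 CPM in CD8 and 150.0 in CD4 conventional cells of replicate 3 and at most 33.2 CPM in the other 10 sums of a population and library. Summed acinar and ductal markers ranged from 8.73 to 222 CPM, highest in Treg of replicate 1 (378 among its CD62L-low Treg) and next in CD4 conventional cells of replicate 2, at 112.3. The part of pancreatic RNA in the results was not tested.

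Free RNA and other cells set a different background for each gene. Over 1122 barcodes with B cell markers (at least 5 UMIs) and neither a CD3 UMI nor a TCR beta chain, Nt5e had 0 UMIs, which allows a level of up to 0.625 CPM (3 UMIs, counting error only), and Art2b had 1 UMI. In the same barcodes Cd38 stood at 253 ± 34.7 CPM (SD, n = 4) and Entpd1 at 20.5 ± 7.25 CPM. Over 152 barcodes with myeloid markers Entpd1 stood at 129 ± 32.7 CPM, Cd38 at 63.0 ± 36.2, P2rx7 at 46.1 ± 11.8 and Art2b at 33.3 ± 22.8, and Nt5e had 0 UMIs, which allows up to 1.67 CPM. Nt5e was thus at 0 UMIs in both kinds of barcode, Art2b was near 0 in the B cell barcodes but in the range of T cells in the myeloid ones, and Cd38 was higher in the B cell barcodes than in any T cell population. Barcodes with 2 or more UMIs of either marker list were left out. In RefSeq on build GRCm38.p6 Entpd1 lies at chr19:40612366-40741602, Nt5e at chr9:88327609-88372089, Cd38 at chr5:43868809-43912374, Art2b at chr7:101575729-101585591, P2rx7 at chr5:122643927-122692336 and Adora2a at chr10:75316877-75334792. RefSeq places a second copy of Art2b, Art2a, beside it on chromosome 7 as a transcribed pseudogene, and it has no row in the count tables. Whether Art2b counts hold reads of that copy was not tested. RefSeq also has long noncoding genes inside the spans of Entpd1, Cd38 and Art2b, and whether reads of these entered the counts was not tested.

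With levels summed by population, Treg carried more Entpd1, Cd38 and Adora2a than CD4 conventional cells, and CD8 cells more Entpd1 and Cd38 but less Nt5e and P2rx7. Levels here and below are CPM of the UMIs summed over the cells of a population in replicates 1 to 4 in that order. Where values are said not to overlap, this describes the named genes only, and the share of all genes without overlap is not given. A lower CPM can mean fewer cells with the transcript, fewer transcripts in each or more other RNA, which sums do not tell apart. Entpd1 was at 7.45, 14.2, 13.3 and 15.9 CPM in CD4 conventional cells, 30.4, 32.6, 33.2 and 34.7 in Treg and 13.5, 18.7, 42.4 and 49.4 in CD8 cells. The Treg values did not overlap those of CD4 conventional cells and were nearly the same in every library, while the CD8 values lay below Treg in replicates 1 and 2 and above in 3 and 4. On the log2 scale of the fit, Treg exceeded CD4 conventional cells in Entpd1 by 1.31 ± 0.14 (SE), adjusted p = 4.04e-08, and CD8 cells exceeded them by 1.26 ± 0.23 (SE), adjusted p = 0.00636. When each clonotype counted as 1 cell, the Treg difference was 1.66 (adjusted p = 1.10e-07, 1.90e-20 to 3.64e-04 over its alternatives). The CD8 difference turned to -0.30 (adjusted p = 0.36) in that count, so CD8 cells were not higher there. In 14 of 15 alternatives the CD8 difference stayed positive and called, with the smallest adjusted p, 5.69e-06, at 1.19 by DESeq2.

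Nt5e separated the CD8 cells from both CD4 populations. Its level was 44.4, 74.0, 60.4 and 54.7 CPM in CD4 conventional cells, 66.9, 79.6, 78.3 and 60.7 in Treg and 26.2, 28.7, 14.3 and 18.5 in CD8 cells. All CD8 values lay below all others, a difference of -1.40 ± 0.20 (SE), adjusted p = 0.00323, against CD4 conventional cells, and this held with 1 cell per clonotype at -0.76 (adjusted p = 4.35e-04, 3.60e-11 to 0.0236 over its alternatives). Treg and CD4 conventional cells overlapped in Nt5e, and the small difference of 0.22 ± 0.09 (SE), adjusted p = 0.0407, was lost without replicate 1 (0.13) or 3 (0.20), without the replicate block or by DESeq2, and turned to -0.14 (adjusted p = 0.212) among CD62L-low cells alone. The other alternatives were positive, and over all alternatives the adjusted p ran from 8.94e-06 to 0.552. The difference was larger with 1 cell per clonotype (0.76), in cells of 2000 to 8000 UMIs (0.74) and without cycling cells (0.64), all called, so its size and sign depended on the cells taken.

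Cd38, the NAD-degrading enzyme, was lowest in CD4 conventional cells, at 12.9, 18.5, 14.5 and 20.4 CPM. It reached 25.5, 41.5, 31.5 and 23.7 CPM in Treg and 24.7, 35.1, 54.3 and 57.2 in CD8 cells. No CD4 conventional value reached either population, and Treg and CD8 values overlapped each other. The differences were 0.80 ± 0.14 (SE), adjusted p = 9.04e-05, for Treg and 1.38 ± 0.17 (SE), adjusted p = 0.00133, for CD8 cells.

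In these sums Art2b, which modifies P2X7, was highest in CD4 conventional cells. It stood at 47.1, 48.1, 70.9 and 55.6 CPM in CD4 conventional cells, 35.2, 35.6, 46.2 and 53.2 in Treg and 45.9, 23.8, 30.5 and 32.3 in CD8 cells. Within each library it was lower in Treg and in CD8 cells than in CD4 conventional cells, although the Treg and CD4 conventional ranges overlapped and the highest CD8 value lay just below the lowest CD4 conventional one. The Treg difference was -0.45 ± 0.10 (SE), adjusted p = 4.99e-04, and ended without the replicate block (-0.47) and without cycling cells, at -0.12 (adjusted p = 0.532, 1.14e-06 to 0.742 over its alternatives). In all it lost its call in 3 of 16 alternatives, and the smallest difference over them was -0.07. The CD8 difference was -0.72 ± 0.20 (SE), adjusted p = 0.0323, it lost its call without replicate 2 (-0.65), 3 (-0.55) or 4 (-0.72), and with 1 cell per clonotype it was -0.05 (adjusted p = 0.892, 7.09e-05 to 0.892 over its alternatives). It was -0.11 and not called in cells of 2000 to 8000 UMIs, and -1.52 and called among CD62L-low cells.

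Of the receptors, Adora2a was highest in Treg and P2rx7 lowest in CD8 cells. P2rx7, the ATP-gated channel, was at 49.1, 58.3, 55.2 and 51.4 CPM in CD4 conventional cells, 48.0, 59.7, 84.3 and 66.4 in Treg and 33.8, 35.7, 30.1 and 28.6 in CD8 cells. CD8 cells lay below all other values, a difference of -0.71 ± 0.08 (SE), adjusted p = 2.15e-04, whereas Treg differed from CD4 conventional cells by 0.18 ± 0.10 (SE), adjusted p = 0.164, with a 95% interval of -0.03 to 0.38. That Treg difference was called in cells of 2000 to 8000 UMIs at 0.55 (adjusted p = 7.50e-04, 7.50e-04 to 0.727 over its alternatives), without cycling cells at 0.48 (adjusted p = 0.0011) and with library totals at 0.26 (adjusted p = 0.0477). Adora2a, the adenosine receptor, was at 23.2, 33.1, 25.9 and 30.0 CPM in CD4 conventional cells, 52.8, 58.4, 60.4 and 48.8 in Treg and 25.6, 33.7, 39.9 and 44.5 in CD8 cells. All Treg values lay above all others, a difference of 0.90 ± 0.10 (SE), adjusted p = 4.33e-08, against CD4 conventional cells. The smaller CD8 difference of 0.39 ± 0.11 (SE), adjusted p = 0.023, lost its call without replicate 3 (0.29) or 4 (0.30), without the replicate block, by DESeq2 and in cells of 2000 to 8000 UMIs (0.30), and was 0.16 (adjusted p = 0.365, 0.0123 to 0.365 over its alternatives) with 1 cell per clonotype. In all, 5 of 6 members were called between Treg and CD4 conventional cells, where 42% of all genes (21.5% higher, 20.5% lower) were called, and 6 of 6 between CD8 and CD4 conventional cells, where 41.9% of all genes (22.1% higher, 19.8% lower) were called. Both populations differed broadly from CD4 conventional cells, so these counts of members are read against that background.

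**Figure D1:**
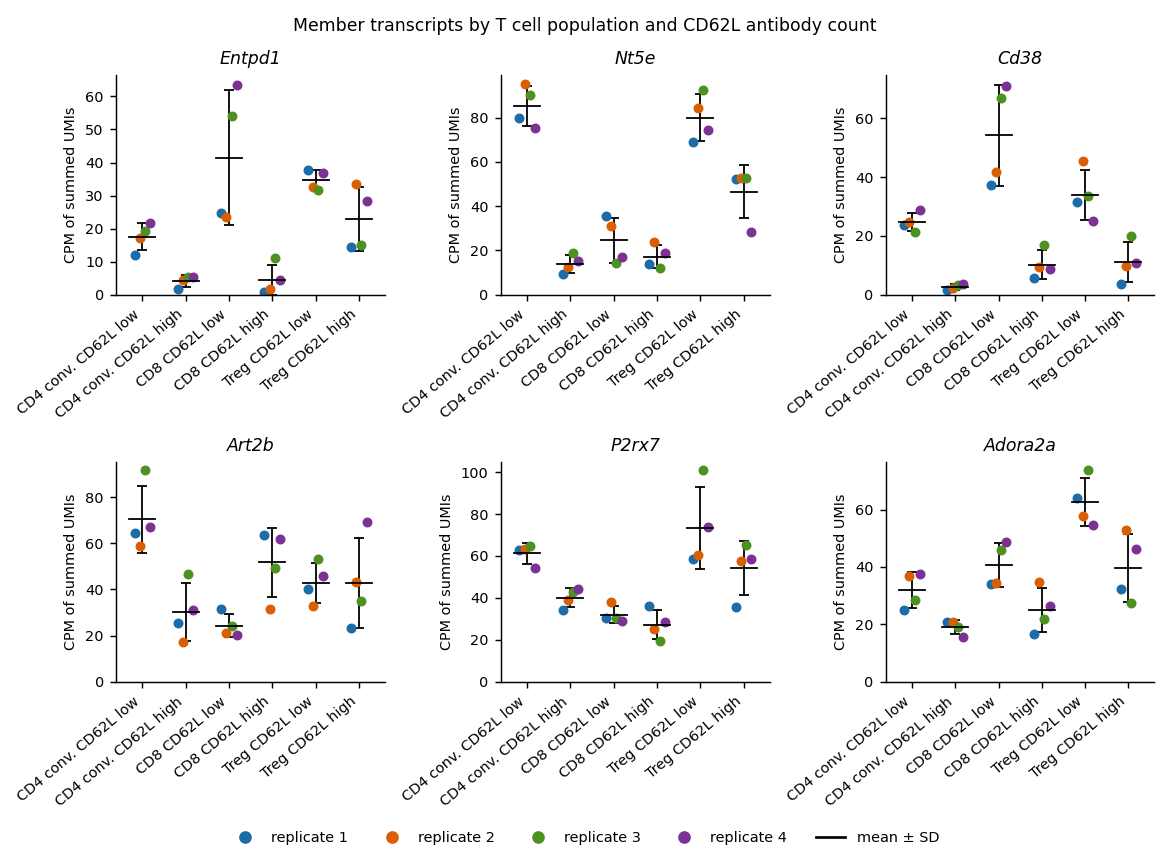
Level of each of the 6 genes (vertical axis, CPM of summed UMIs) in CD4 conventional, CD8 and Treg cells with low or high CD62L antibody count (horizontal axis); points are the 4 libraries, bars the mean ± SD. In CD4 conventional cells Nt5e was at 75.4 to 95.1 CPM in CD62L-low and 9.22 to 18.7 in CD62L-high cells, and Art2b in CD8 cells at 20.4 to 31.3 and 31.5 to 63.8 CPM.

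CD62L-high CD4 conventional cells had less of all 6 transcripts than CD62L-low cells, and in CD8 cells Art2b went the other way. Nt5e, which makes adenosine, stood at 9.22, 12.5, 18.7 and 15.3 CPM in CD62L-high against 79.7, 95.1, 90.1 and 75.4 CPM in CD62L-low CD4 conventional cells. Entpd1 stood at 1.57, 4.35, 5.18 and 5.31 against 11.9, 17.3, 19.3 and 21.5 CPM. Cd38 stood at 1.57, 2.18, 3.16 and 3.54 against 23.7, 24.6, 21.4 and 28.7 CPM. None of the 3 genes overlapped between high and low cells. High minus low was -2.47 ± 0.13 (SE), adjusted p = 2.41e-08, for Nt5e, -2.01 ± 0.19 (SE), adjusted p = 3.39e-07, for Entpd1 and -3.10 ± 0.19 (SE), adjusted p = 2.63e-09, for Cd38.

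The Cd38 value depended on the removal of barcodes with B cell markers. When barcodes with B cell or myeloid markers were kept, the CD4 conventional difference was -0.19 (adjusted p = 0.166, 7.10e-45 to 0.166 over its alternatives). Such barcodes made up 8.49% of CD62L-high and 2.41% of CD62L-low CD4 conventional cells before removal, and those in CD62L-high cells held a median of 22 UMIs over the B cell markers. Among Treg the shares were 16.9% and 4.67%, and there the Cd38 difference became -0.22 (adjusted p = 0.667, 2.50e-04 to 0.667 over its alternatives). The other 5 members kept their call in CD4 conventional cells with these barcodes included, Entpd1 at -1.20. The CD62L effect of Cd38 in CD8 minus that in CD4 conventional cells, tested further on, was 0.83 and not called (adjusted p = 0.242) without these barcodes. With them it was -1.33 (adjusted p = 0.0145, 0.0145 to 0.632 over its alternatives).

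Art2b fell from 64.3, 59.0, 91.7 and 66.9 CPM in CD62L-low to 25.4, 17.4, 46.9 and 31.0 in CD62L-high CD4 conventional cells, without overlap, a difference of -1.08 ± 0.10 (SE), adjusted p = 3.01e-07. P2rx7, its substrate, went from 62.6, 63.2, 65.0 and 54.0 to 34.1, 39.2, 42.6 and 44.3 CPM, a difference of -0.48 ± 0.09 (SE), adjusted p = 3.82e-04. Adora2a went from 24.9, 36.9, 28.5 and 37.5 to 20.9, 20.7, 18.9 and 15.6 CPM, a difference of -0.56 ± 0.15 (SE), adjusted p = 0.00934. Its highest CD62L-high value stayed below its lowest CD62L-low value. All 6 members were thus lower, beside 47.2% of all genes (23.3% higher, 23.9% lower) called.

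In CD8 cells Entpd1 and Cd38 were again lower in CD62L-high cells. Entpd1 stood at 0.759, 1.58, 11.0 and 4.38 CPM against 24.6, 23.6, 54.1 and 63.5 in CD62L-low cells, and Cd38 at 5.69, 9.46, 17.0 and 8.76 against 37.4, 41.8, 67.0 and 71.0. Neither overlapped, with differences of -3.09 ± 0.30 (SE), adjusted p = 1.88e-05, and -2.32 ± 0.18 (SE), adjusted p = 1.23e-06. Art2b was instead higher in CD62L-high CD8 cells, at 63.8, 31.5, 49.5 and 62.0 CPM against 31.3, 21.3, 24.2 and 20.4, or 1.23 ± 0.15 (SE), adjusted p = 3.13e-05. It was higher in 4 of 4 libraries, and the lowest CD62L-high value lay just above the highest CD62L-low value. Adora2a differed by -0.71 ± 0.17 (SE), adjusted p = 0.00416, in 3 of 4 libraries. Nt5e at 13.7, 23.6, 12.1 and 19.0 against 35.4, 31.1, 14.3 and 17.2 CPM overlapped, with a difference of -0.44 (95% interval -0.96 to 0.09, adjusted p = 0.169). P2rx7 differed by -0.08 (95% interval -0.45 to 0.28, adjusted p = 0.736). So 4 of 6 members were called, beside 40.2% of all genes (19% higher, 21.2% lower).

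Cycling cells, with 2 or more UMIs over Mki67, Top2a, Birc5 and Cdk1, made up 24.9% of CD62L-low and 3.92% of CD62L-high CD8 cells. Without them Nt5e was called at -1.08 (adjusted p = 2.21e-04, 2.21e-04 to 0.934 over its alternatives), P2rx7 at -0.51 (adjusted p = 0.0399, 0.0375 to 0.997 over its alternatives), and Art2b was at 0.56 (adjusted p = 0.00156, 8.22e-16 to 0.923 over its alternatives). In cells of 2000 to 8000 UMIs Nt5e at -0.70 and P2rx7 at -0.54 were also called. The part of cycling in these values was otherwise not tested. The call of Adora2a ended with 1 cell per clonotype, at -0.52 (adjusted p = 0.109, 1.92e-05 to 0.779 over its alternatives).

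Between CD62L-high and CD62L-low Treg only 2 of 6 members were called, beside 3.94% of all genes (1.69% higher, 2.24% lower), in sums of 34 to 75 CD62L-high cells a library. Nt5e was at 52.0, 52.8, 52.7 and 28.4 CPM in high and 68.8, 84.2, 92.5 and 74.3 in low cells, a difference of -0.76 ± 0.20 (SE), adjusted p = 0.0384. Cd38 was at 3.59, 9.60, 20.1 and 10.7 and 31.7, 45.5, 33.6 and 25.2 CPM, or -1.56 ± 0.35 (SE), adjusted p = 0.0127. Neither overlapped, but Nt5e lost its call without replicate 2, 3 or 4 (-0.79, -0.76 and -0.55) and Cd38 without replicate 1 (-1.19), and neither was called by DESeq2, with 1 cell per clonotype or with CD62L cut at its tertiles. Entpd1, the best known of the Treg enzymes, differed by -0.66 (95% interval -1.24 to -0.07, adjusted p = 0.242), from 37.9, 32.7, 31.8 and 36.8 CPM in low to 14.4, 33.6, 15.1 and 28.4 in high cells, which overlapped. Art2b differed by 0.00 (95% interval -0.51 to 0.51), and P2rx7 and Adora2a by -0.42 and -0.65, none of them called. In cells of 2000 to 8000 UMIs Entpd1 was called at -1.58 (adjusted p = 0.00807, 0.00807 to 0.935 over its alternatives), P2rx7 at -0.92 (adjusted p = 0.0121, 0.0121 to 0.983 over its alternatives) and Adora2a at -0.93 (adjusted p = 0.0403, 0.0345 to 0.698 over its alternatives). Without cycling cells Entpd1 (-1.08) and Adora2a (-0.84) were called, and with B cell and myeloid marker barcodes kept P2rx7 (-0.57) and Adora2a (-0.70) were.

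Whether the CD62L difference was unlike in CD8 and CD4 conventional cells was tested in 1 fit over both. The term was 2.36 ± 0.30 (SE), adjusted p = 7.98e-04, for Art2b and 2.01 ± 0.50 (SE), adjusted p = 0.048, for Nt5e, and these 2 of 6 members were called beside 5.06% of all genes (3.17% higher, 1.89% lower). The Art2b term was called in every alternative run. The Nt5e term lost its call without replicate 2 (1.99) or 4 (1.90) and in 6 further alternatives. For Entpd1 the term was -0.96 (95% interval -2.09 to 0.17), for Cd38 0.83 (0.01 to 1.64), for P2rx7 0.42 (-0.01 to 0.85) and for Adora2a -0.15 (-0.69 to 0.38), none called.

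Clonal expansion split the members further. A clone was a set of cells of 1 library with the same TRA and TRB receptor sequences, single when it had 1 cell and expanded from 2. As a share of all UMIs, expanded CD8 cells had far more Entpd1 and far less Art2b than single CD8 cells. Library medians were 5638 to 7526 UMIs per cell in expanded and 4091 to 5298 in single CD8 cells. Counts of a gene per cell were not compared. Entpd1 stood at 1.21, 5.26, 4.73 and 2.83 CPM in single and 35.0, 25.4, 61.5 and 73.3 in expanded CD8 cells, a difference of 3.75 ± 0.29 (SE), adjusted p = 2.79e-06. Art2b stood at 60.9, 39.1, 54.2 and 63.5 CPM in single and 21.7, 11.9, 16.9 and 16.3 in expanded cells, or -1.82 ± 0.13 (SE), adjusted p = 4.41e-08. Neither gene overlapped between the groups, and both directions held in 4 of 4 libraries and in every alternative run. Cd38 rose from 12.7, 12.3, 19.5 and 13.03 to 48.3, 51.9, 69.7 and 76.4 CPM, a difference of 1.97 ± 0.14 (SE), adjusted p = 6.21e-08.

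Adora2a rose from 20.6, 24.5, 23.1 and 30.0 CPM in single to 39.4, 44.6, 47.5 and 49.7 in expanded CD8 cells, again without overlap, a difference of 0.78 ± 0.12 (SE), adjusted p = 9.29e-05. Nt5e went from 17.0, 27.5, 14.7 and 19.3 to 41.4, 34.2, 12.3 and 16.6 CPM and was higher in expanded cells in replicates 1 and 2 and lower in 3 and 4, with a difference of 0.26 (95% interval -0.32 to 0.84). P2rx7 differed by -0.37 ± 0.15 (SE), adjusted p = 0.0458. It lost its call without replicate 1, 3 or 4 (-0.33, -0.33 and -0.30) and turned to 0.25 (adjusted p = 0.301) without cycling cells. The smallest adjusted p of its alternatives, 0.0061, was at -0.54 without replicate 2, and the largest, 0.429, at 0.22 in cells of 2000 to 8000 UMIs. P2rx7 was also not called by DESeq2, without the replicate block, with library totals, with 1 cell per clonotype or with B cell and myeloid marker barcodes kept. In all 5 of 6 members were called, where 53% of all genes (26.9% higher, 26.1% lower) were. Cycling cells were 40.5% of expanded and 4.35% of single CD8 cells, and without them Art2b was -1.03 (adjusted p = 3.28e-06, 1.31e-35 to 1.40e-05 over its alternatives), Nt5e 1.26 (adjusted p = 2.00e-04, 2.00e-04 to 0.903 over its alternatives) and Entpd1 4.01 (adjusted p = 9.32e-05, 4.49e-67 to 6.12e-04 over its alternatives). With 1 cell per clonotype Nt5e was called at 1.01 (adjusted p = 0.00199).

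Expanded CD4 conventional cells had more Entpd1 and Nt5e, the genes of the 2 enzymes that act in turn from ATP to adenosine. Entpd1 rose from 4.47, 9.48, 7.45 and 9.64 to 17.1, 21.1, 21.6 and 25.8 CPM, a difference of 1.37 ± 0.15 (SE), adjusted p = 2.27e-06, and Nt5e from 21.7, 38.1, 36.5 and 30.9 to 95.8, 132, 105 and 91.1, a difference of 1.62 ± 0.09 (SE), adjusted p = 1.80e-09. Cd38 rose from 4.75, 6.54, 8.81 and 11.0 to 30.3, 32.7, 24.5 and 36.7 CPM, a difference of 1.88 ± 0.17 (SE), adjusted p = 6.15e-07. None of these 3 overlapped between single and expanded cells, and among CD62L-low cells alone the differences were 0.83, 0.96 and 1.16, all called. Adora2a differed by 0.33 ± 0.11 (SE), adjusted p = 0.0183. It lost its call in 7 of 16 alternatives, among them without replicate 1 (0.31) or 4 (0.24) and by DESeq2. Over its alternatives the smallest value was 0.14 and the largest adjusted p 0.423. These 4 of 6 members were called beside 50.2% of all genes (25% higher, 25.2% lower). Art2b, at 37.4, 33.4, 71.7 and 56.3 CPM in single and 73.7, 75.1, 77.4 and 57.2 in expanded cells, was well above in replicates 1 and 2 and nearly level in 3 and 4. It was not called (0.41, 95% interval -0.27 to 1.09), but was called in 2 of 16 alternatives, 1 of them without cycling cells, at 0.82. P2rx7 was at 0.01 (-0.21 to 0.22).

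In Treg no member was called between expanded and single cells by the main edgeR fit or DESeq2, beside 8.18% of all genes (3.74% higher, 4.44% lower), and 3 had an unadjusted p under 0.05. Entpd1 was at 13.1, 30.5, 34.4 and 30.5 CPM in single and 54.5, 31.3, 35.2 and 50.2 in expanded Treg, higher in 4 of 4 libraries and by most in replicate 1, a difference of 0.72 (95% interval 0.12 to 1.33, adjusted p = 0.139). Entpd1 was called in 1 of 17 alternatives, with no low filter (adjusted p = 0.0269). Cd38 differed by -0.01 (-0.51 to 0.49) and Nt5e by -0.08 (-0.41 to 0.25). P2rx7 was at -0.43 (adjusted p = 0.185) and was called without replicate 4, at -0.66, and with B cell and myeloid marker barcodes kept, at -0.57.

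The expansion difference itself was unlike in CD8 and CD4 conventional cells for Entpd1, a difference of 2.41 ± 0.46 (SE), adjusted p = 0.0036, and for Art2b, a difference of -2.27 ± 0.32 (SE), adjusted p = 0.00129, with 2 of 6 members called beside 14.7% of all genes (7.81% higher, 6.85% lower). The Art2b term was called in every alternative run, while the Entpd1 term was 2.11 (adjusted p = 0.0513, 2.03e-05 to 0.0685 over its alternatives) without replicate 4 and 1.71 (adjusted p = 0.0685) with 1 cell per clonotype. Cd38 gave 0.10 (95% interval -0.44 to 0.63) and Nt5e gave -1.44 (-2.48 to -0.39, adjusted p = 0.0692), called without replicate 1 at -1.68 and by DESeq2 at -1.37.

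Levels were also read by clone size. In CD8 cells Art2b stood at 60.9, 39.1, 54.2 and 63.5 CPM in single cells, 33.2, 18.2, 25.6 and 24.2 in clones of 2 to 4, 18.0, 5.62, 9.48 and 21.0 in clones of 5 to 9 and 14.7, 12.6, 16.4 and 14.7 in clones of 10 or more. Clones of 2 to 4 lay below single cells in every library, and clones of 5 or more lay lower still. Entpd1 stood at 29.0, 6.82, 49.6 and 24.2 CPM in CD8 clones of 2 to 4, 0, 13.1, 9.48 and 39.7 in clones of 5 to 9 and 46.0, 40.8, 68.7 and 83.9 in clones of 10 or more. It was highest in the largest clones in every library and uneven in between, where a library held 25 to 94 cells a class. The 0 in replicate 1 came from 25 cells and allows up to 13.5 CPM.

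Nt5e by clone size was read in both lineages. In CD4 conventional cells it was at 21.7, 38.1, 36.5 and 30.9 CPM in single cells and 119, 142, 119 and 90.2 in clones of 10 or more. In CD8 cells it was 17.0, 27.5, 14.7 and 19.3 in single cells, 52.6, 45.5, 43.2 and 26.9 in clones of 2 to 4 and 26.7, 33.5, 7.34 and 11.8 in clones of 10 or more. Clones of 2 to 4 lay above single CD8 cells in every library, and the largest clones lay below single cells in replicates 3 and 4. Cd38 was higher in CD8 clones of 2 to 4, at 33.2, 59.1, 75.2 and 88.7 CPM, than in single CD8 cells in every library. These values are descriptions without a test.

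The largest CD8 clone of each library held 18.2, 12.0, 31.9 and 17.6% of its expanded CD8 cells. Entpd1 in that clone was at 89.1, 28.0, 83.9 and 81.8 CPM and in the other expanded CD8 cells at 23.8, 25.0, 53.0 and 71.1. Art2b was at 17.2, 21.0, 25.4 and 21.7 in the largest clone and 22.6, 10.3, 13.7 and 14.9 in the others. Without its largest clone each library thus still had more Entpd1 and less Art2b in expanded than in single CD8 cells.

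**Figure D2:**
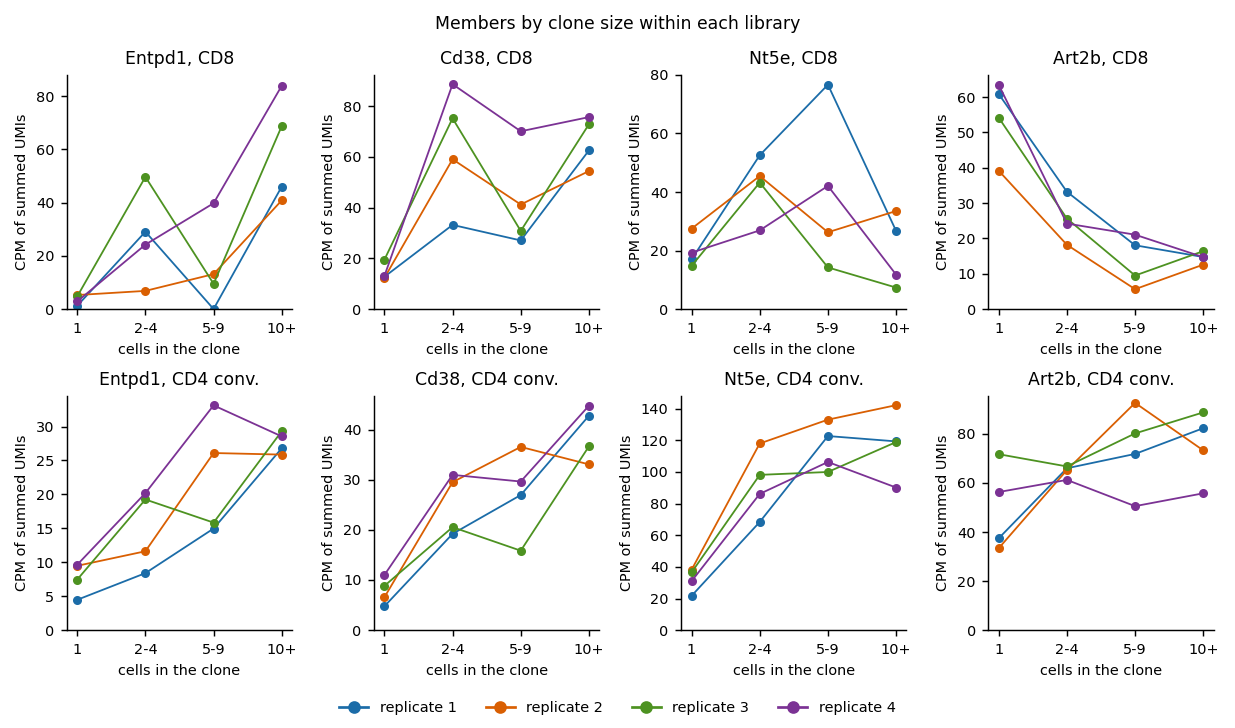
Level of Entpd1, Cd38, Nt5e and Art2b (vertical axis, CPM of summed UMIs) by the number of cells in the clone (horizontal axis) in CD8 cells (top) and CD4 conventional cells (bottom); each line is 1 of the 4 libraries. Art2b in CD8 cells was at 39.1 to 63.5 CPM in single cells and 12.6 to 16.4 in clones of 10 or more, while in CD4 conventional cells it was at 33.4 to 71.7 CPM in single cells and 55.8 to 88.8 in clones of 10 or more.

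CD62L and clone size are tied, since 64.8% of CD62L-low and 8.67% of CD62L-high CD8 cells with a paired receptor were in expanded clones, so both were also read apart. Among CD8 cells of single clones Art2b was at 66.8, 34.1, 49.4 and 64.8 CPM in CD62L-high and 52.5, 38.0, 69.0 and 57.0 in CD62L-low cells. These overlapped, and high minus low was 0.06 (adjusted p = 0.923), against 1.23 in all CD8 cells. Among CD62L-low cells Art2b was at 16.9, 12.1, 16.0 and 14.03 CPM in expanded cells, below every sum of single-clone cells, a difference of -1.97 (adjusted p = 2.04e-07). In CD8 cells the Art2b difference was thus present by clone size within CD62L-low cells and was not called by CD62L within single clones.

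Entpd1 in CD8 cells was at 1.09, 2.01, 2.65 and 3.13 CPM in CD62L-high single, 2.10, 7.59, 9.33 and 0 in CD62L-low single and 37.5, 26.9, 65.0 and 74.7 in CD62L-low expanded cells. The 0 in replicate 4 allows up to 5.70 CPM. Expanded against single among CD62L-low cells was 3.09 (adjusted p = 3.13e-04). Cd38 differed on both axes, being 5.47, 8.03, 5.29 and 6.27 CPM in CD62L-high single, 21.0, 15.2, 37.3 and 17.1 in CD62L-low single and 48.4, 53.9, 72.3 and 77.5 in CD62L-low expanded CD8 cells, with -1.87 (adjusted p = 3.46e-04, 5.67e-37 to 0.00137 over its alternatives) for CD62L among single clones and 1.38 (adjusted p = 2.90e-05, 2.29e-40 to 2.90e-05 over its alternatives) for expansion among CD62L-low cells.

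In CD4 conventional cells Art2b differed by CD62L within single clones. It was at 23.9, 16.8, 42.1 and 29.0 CPM in CD62L-high single, 55.9, 43.5, 112.4 and 82.4 in CD62L-low single and 72.9, 78.6, 83.3 and 59.6 in CD62L-low expanded cells. CD62L-high minus low among single clones was -1.29 (adjusted p = 4.99e-09, 7.69e-28 to 0.0187 over its alternatives). Expanded minus single among CD62L-low cells was -0.04 (adjusted p = 0.941), higher in replicates 1 and 2 and lower in 3 and 4. The smallest adjusted p over the alternatives of the expansion difference, 0.037, belonged to a positive value. Restricted to single clones, the difference in CD62L effect between CD8 and CD4 conventional cells remained at 1.37 (adjusted p = 0.00166, 5.29e-12 to 0.034 over its alternatives).

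**Figure D3:**
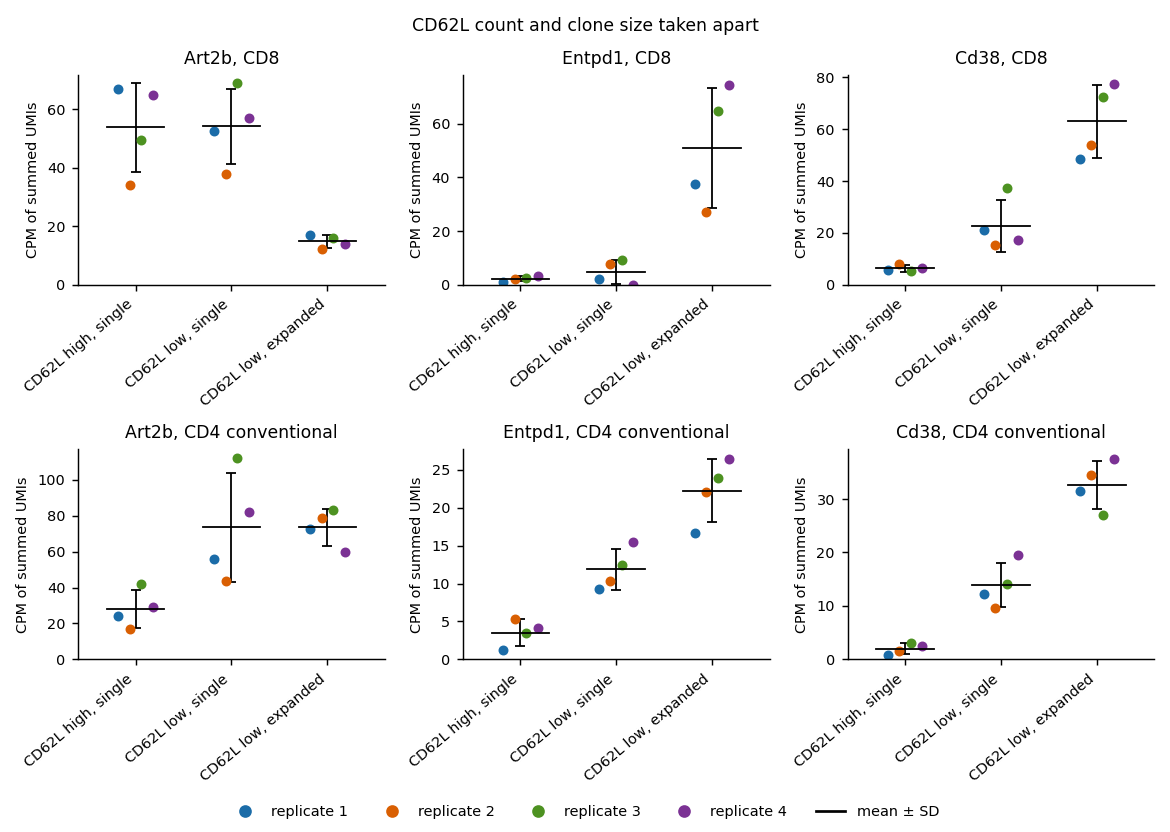
Art2b, Entpd1 and Cd38 (vertical axis, CPM of summed UMIs) in CD62L-high single, CD62L-low single and CD62L-low expanded cells (horizontal axis) of the CD8 (top) and CD4 conventional (bottom) gates; points are libraries, bars the mean ± SD. In CD8 cells Art2b was at 38.0 to 69.0 CPM in CD62L-low single and 12.1 to 16.9 in CD62L-low expanded cells.

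The start regions of Entpd1 and Art2b are shown because these genes moved in opposite directions in expanded CD8 clones. They are RefSeq sequences on build GRCm38.p6 of 300 bases, from 250 before to 50 after the annotated start, read 5′ to 3′ on the strand of the gene. Capitals mark TGACG or its reverse complement CGTCA, the short form of the element bound by cyclic AMP response factors. Entpd1 has 2 annotated starts on the plus strand of chromosome 19, at chr19:40612116-40612415 and chr19:40659520-40659819, and Art2b 1 on the minus strand of chromosome 7, at chr7:101581112-101581411. The Art2b start in the table lies inside the gene's RefSeq span, downstream of its 5′ end, and the window around that end was not used here.
Entpd1, first start: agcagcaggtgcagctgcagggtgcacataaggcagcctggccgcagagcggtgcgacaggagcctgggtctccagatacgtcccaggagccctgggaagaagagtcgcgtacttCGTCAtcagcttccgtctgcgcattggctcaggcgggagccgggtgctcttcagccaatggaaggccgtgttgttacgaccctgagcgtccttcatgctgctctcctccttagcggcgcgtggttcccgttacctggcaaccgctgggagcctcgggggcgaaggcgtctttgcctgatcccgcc
Entpd1, second start: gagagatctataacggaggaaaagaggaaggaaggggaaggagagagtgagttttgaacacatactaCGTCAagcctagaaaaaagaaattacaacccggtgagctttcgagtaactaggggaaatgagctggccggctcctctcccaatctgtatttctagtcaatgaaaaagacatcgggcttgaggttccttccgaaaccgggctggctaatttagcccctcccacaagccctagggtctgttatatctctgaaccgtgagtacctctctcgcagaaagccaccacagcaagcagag
Art2b: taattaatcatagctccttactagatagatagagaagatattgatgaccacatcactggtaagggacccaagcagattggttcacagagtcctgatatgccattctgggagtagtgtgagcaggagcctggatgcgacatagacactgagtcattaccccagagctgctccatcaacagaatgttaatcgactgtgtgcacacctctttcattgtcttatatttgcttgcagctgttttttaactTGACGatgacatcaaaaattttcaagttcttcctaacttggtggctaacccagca
Each of the 3 windows held the element once, and 20.8% of 32851 RefSeq windows of this length held it at least once, so its presence sets neither gene apart from many others. The windows of Nt5e and Cd38 and both of P2rx7 held none. The AP-1 letters TGANTCA occurred once in the Art2b window and once in the first of P2rx7, against 7.81% of all windows. A match is a description of letters and no evidence of binding, and 5 of the 6 members had an entry in the table.

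CD4 conventional cells with an Il21 UMI, the cytokine of T cell help, had more Nt5e, Cd38 and Entpd1. Nt5e was at 128, 167, 122 and 96.2 CPM in cells with an Il21 UMI and 29.7, 49.2, 45.0 and 43.6 in cells without, or 1.51 ± 0.14 (SE), adjusted p = 4.53e-05. Cd38 was at 28.0, 40.2, 20.4 and 34.8 against 10.2, 12.7, 13.03 and 16.5 CPM, or 1.11 ± 0.15 (SE), adjusted p = 2.54e-05. Entpd1 was at 18.7, 15.8, 23.5 and 21.9 against 5.46, 13.8, 10.8 and 14.3 CPM, or 0.81 ± 0.21 (SE), adjusted p = 0.00723. Nt5e, Cd38 and Entpd1 did not overlap between the groups, and the 3 of 6 members called compare with 46.9% of all genes (23.6% higher, 23.3% lower).

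Within CD62L-low cells, Nt5e kept its call at 0.99 (adjusted p = 1.54e-05, 3.93e-66 to 6.33e-04 over its alternatives) and Cd38 at 0.55 (adjusted p = 0.0264, 2.34e-13 to 0.0264 over its alternatives), while Entpd1 was at 0.35 (adjusted p = 0.155, 2.05e-05 to 0.155 over its alternatives). Entpd1 also lost its call without replicate 3 (0.72). Art2b was at 80.1, 79.4, 84.5 and 57.1 against 41.3, 39.7, 67.5 and 55.2 CPM, just outside the threshold at 0.47 ± 0.16 (SE), adjusted p = 0.0511, and was called in 9 of 15 alternatives, among them without replicate 3 or 4, with values from 0.43 to 1.10. P2rx7 and Adora2a differed by 0.10 (-0.17 to 0.38) and 0.12 (-0.10 to 0.35). Cells with an Il21 UMI had a median of 4402 to 6181 UMIs a library against 2939 to 3825.5, and in cells of 2000 to 8000 UMIs alone Nt5e was 2.07 (adjusted p = 7.31e-07). Of cells with an Il21 UMI and a paired receptor 80.5% were in expanded clones, against 20.9% of those without the UMI. Cycling cells were 18.9% of those with and 3.89% of those without an Il21 UMI. The part of expansion in the Il21 differences was not tested.

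CD8 cells with a UMI of Havcr2, the gene of the inhibitory receptor TIM-3, had more Entpd1 and less Nt5e, Art2b and P2rx7. Entpd1 was at 116, 135, 82.5 and 135 CPM in cells with and 7.76, 8.18, 25.5 and 30.8 in cells without, or 2.62 ± 0.53 (SE), adjusted p = 0.0351. P2rx7 was at 11.6, 0, 3.99 and 12.9 against 35.1, 39.0, 41.1 and 32.0 CPM, or -2.43 ± 0.38 (SE), adjusted p = 3.92e-04. The 0 of replicate 2 comes from 30 cells and allows up to 7.92 CPM. Art2b was at 5.78, 13.2, 9.56 and 12.9 against 48.2, 24.8, 39.3 and 36.6 CPM, or -1.84 ± 0.25 (SE), adjusted p = 2.98e-06, and Nt5e at 5.78, 13.2, 6.38 and 7.23 against 27.3, 30.1, 17.6 and 20.9, or -1.54 ± 0.27 (SE), adjusted p = 9.44e-05. None of these 4 overlapped between the groups.

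Cd38 was at 80.9, 89.7, 56.6 and 111 CPM in Havcr2 cells against 21.5, 30.1, 53.4 and 45.6, or 1.04 ± 0.26 (SE), adjusted p = 0.0138, with replicate 3 nearly level. Adora2a was at 0.42 (95% interval 0.01 to 0.83, adjusted p = 0.112). Thus 5 of 6 members were called beside 30% of all genes (15.1% higher, 15% lower). Without replicate 4 neither Entpd1 at 2.89 (adjusted p = 0.0771, 6.65e-39 to 0.104 over its alternatives) nor Cd38 at 0.94 (adjusted p = 0.0761, 7.59e-12 to 0.135 over its alternatives) was called, and neither was called among CD62L-low cells alone, at 2.01 and 0.58. Cells with a Havcr2 UMI were CD62L-low in 86.3% against 55.0% of those without. Without replicate 3 Adora2a was called at 0.64 (adjusted p = 0.0189, 0.0189 to 0.736 over its alternatives). Of the cells with a Havcr2 UMI 62.1% were cycling against 13.9% without, their library medians were 7594 to 16049.5 UMIs against 3708 to 4827, and 94.9% of those with a paired receptor were in expanded clones. Without cycling cells P2rx7 was -1.96 (adjusted p = 0.00203, 2.21e-17 to 0.0135 over its alternatives), Art2b -1.34 (adjusted p = 0.0142, 2.40e-12 to 0.0142 over its alternatives), Entpd1 3.20 (adjusted p = 7.70e-33), Cd38 1.75 and Nt5e -0.76 (adjusted p = 0.525, 1.19e-06 to 0.525 over its alternatives).

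**Figure D4:**
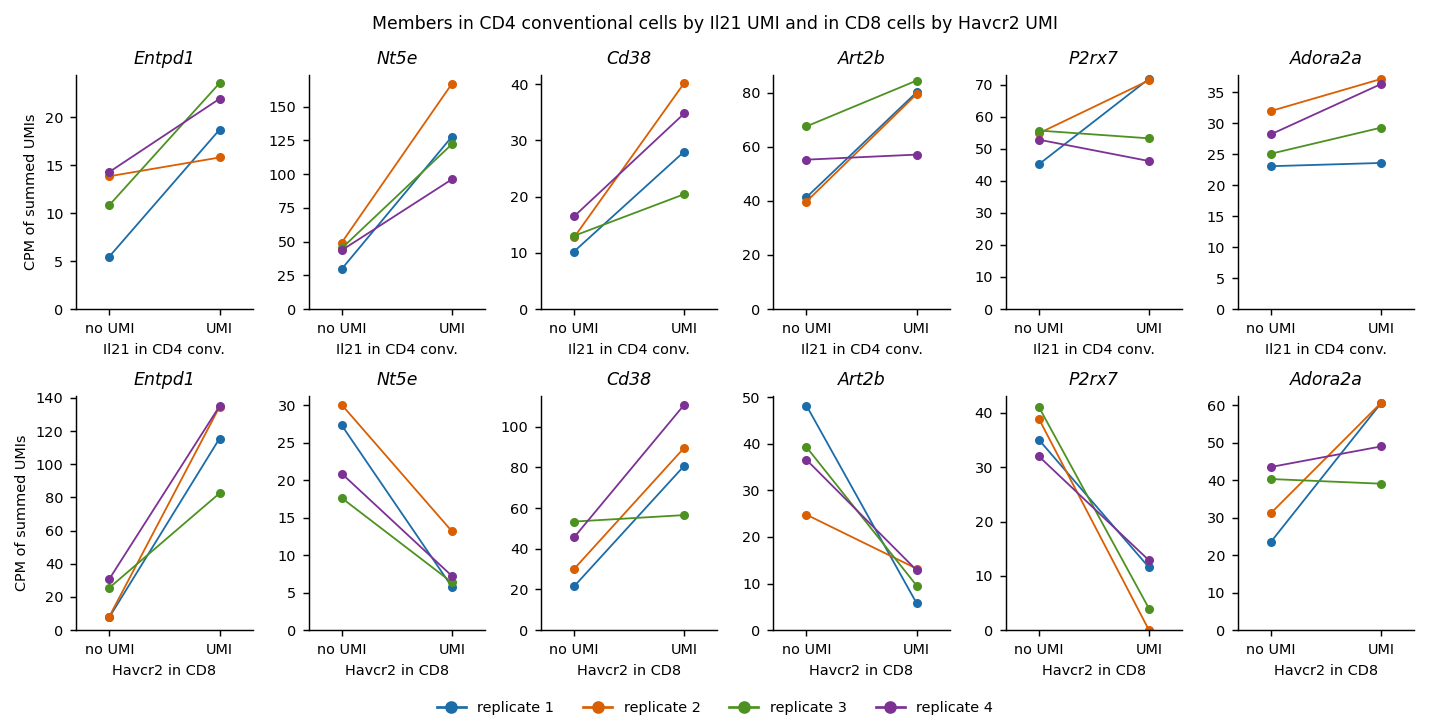
The 6 members (vertical axis, CPM of summed UMIs) in CD4 conventional cells without and with an Il21 UMI (top) and in CD8 cells without and with a Havcr2 UMI (bottom); each line joins the 2 sums of 1 library. Nt5e was at 96.2 to 167 CPM in Il21 cells and 29.7 to 49.2 in the others, but at 5.78 to 13.2 in Havcr2 cells and 17.6 to 30.1 in other CD8 cells.

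Whether these 2 transcripts, Entpd1 and Nt5e, went together within a population was read from cells split by 1 of them. Among CD62L-low CD4 conventional cells, those with an Nt5e UMI had Entpd1 at 12.6, 18.6, 19.7 and 20.5 CPM and those without at 11.5, 16.4, 19.1 and 22.0. The difference was 0.00 with a 95% interval of -0.27 to 0.27. Cd38 was the 1 of 5 members called, at 0.54 ± 0.17 (SE), adjusted p = 0.0322, beside 30.6% of all genes (15.3% higher, 15.3% lower). It lost its call without replicate 1 (0.59) or 2 (0.27) and was not called by DESeq2. Art2b, at 0.02, was called without cycling cells at 0.37 (adjusted p = 0.00251, 0.00251 to 0.947 over its alternatives). In cells of 2000 to 8000 UMIs it was called at 0.38 (adjusted p = 0.00967). Of the cells with an Nt5e UMI 15.4% were cycling against 5.5% without, with a median of 4607 against 3263 UMIs. Of those with a paired receptor 66.5% against 37.9% were in expanded clones.

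Among CD62L-low Treg, those with an Entpd1 UMI had Nt5e at 58.4, 77.6, 68.7 and 51.7 CPM and those without at 72.7, 86.5, 102 and 82.4. Nt5e was lower in 4 of 4 libraries, a difference of -0.39 (95% interval -0.76 to -0.02, adjusted p = 0.287). Art2b was at 27.8, 18.9, 36.0 and 33.6 against 44.9, 37.5, 60.1 and 50.0 CPM, also lower in 4 of 4 libraries but not called, at -0.73 (-1.22 to -0.25, adjusted p = 0.0776). P2rx7 was at -0.63 (adjusted p = 0.0991) and was called without replicate 3, at -0.98 (adjusted p = 0.00896, 0.00896 to 0.859 over its alternatives). Of the cells with an Entpd1 UMI 31.3% were cycling against 17.2% without, with a median of 6724 against 4351 UMIs. Without cycling cells Nt5e was -0.11, Art2b -0.31 and P2rx7 -0.15, and with 1 cell per clonotype Art2b was called at -1.21. None of 5 members was called by the main edgeR fit or DESeq2, 3 had an unadjusted p under 0.05, and 3.62% of all genes (2.2% higher, 1.42% lower) were called.

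**Figure D5:**
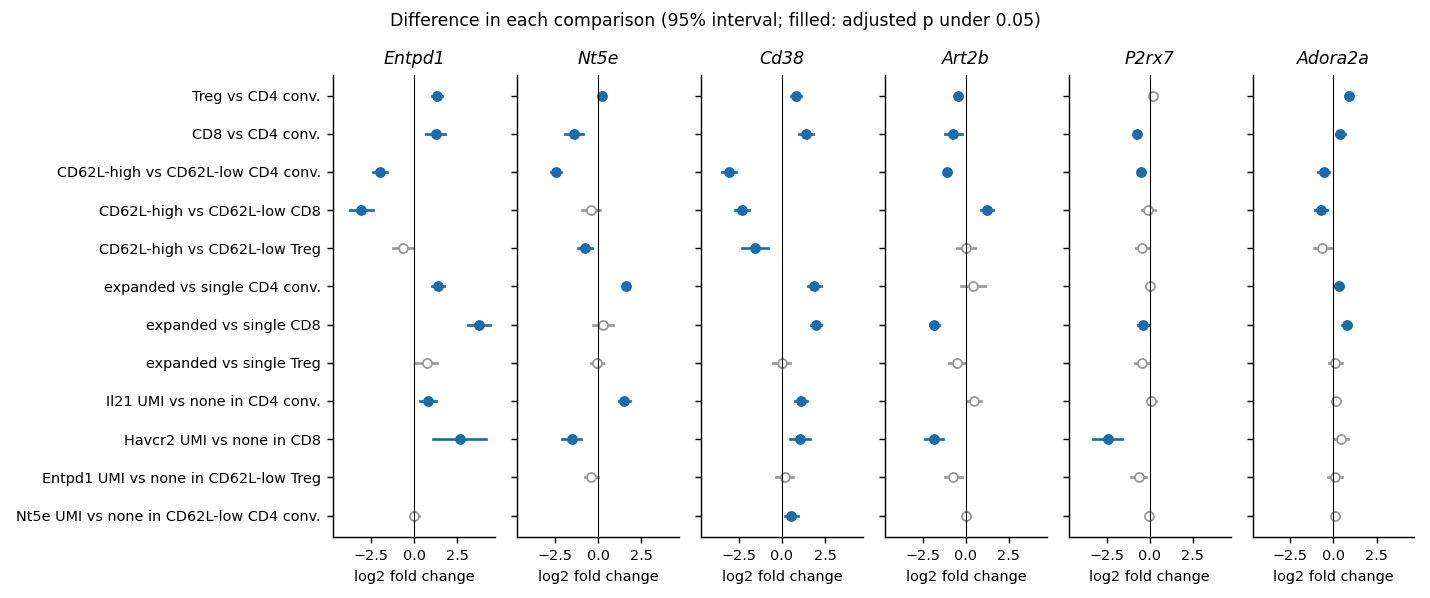
log2 fold change of each member (horizontal axis) in the 12 comparisons (rows), with its 95% interval; filled blue points had an adjusted p under 0.05 and open grey points did not. Art2b lay at 1.23 for CD62L-high against low in CD8 cells and at -1.08 in CD4 conventional cells, and Entpd1 reached 3.75 for expanded against single CD8 cells.

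The 6 genes fell into different patterns over the 24 sums of the CD4 conventional, CD8 and Treg cells with high or low CD62L. After centring log2(CPM + 1) within each library, Entpd1 correlated with Adora2a at r = 0.81 and with Cd38 at 0.77, Nt5e with P2rx7 at 0.79, and Art2b with Entpd1 at -0.10. These sums share libraries, depth and cell states, so the correlations are descriptions. Of 8317 genes with a mean of at least 10 CPM, those most like Entpd1 were Stk32c (0.98), Emd (0.97) and Gapdh (0.96), and those most like Nt5e were Rabgap1l (0.94), Hif1a (0.94) and Sh3bgrl (0.93). Cd38 came closest to Tmem256 (0.95), Runx2 (0.94) and Hip1 (0.93). P2rx7 came closest to Inpp4b (0.91), Asb2 (0.91) and Matk (0.90). Adora2a came closest to Nacc1 (0.93), Dck (0.92) and Psmd8 (0.91). Art2b came closest to Ogt (0.72), Lpar6 (0.70) and Kdm1b (0.68), so no gene followed Art2b as closely as the other members were followed.

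Other genes of purine and NAD handling were read from lists of ectonucleotidases, adenosine handling, purine receptors, ATP release, NAD synthesis and use, CD62L shedding and the cyclic AMP response, 75 genes found in the files. The share of the tested list genes that was called, and their median, stand beside those of all genes tested. Nothing is called particular to the lists. Between Treg and CD4 conventional cells, 47 genes of the lists were tested, 14 higher and 17 lower (66% called against 42% of all genes), with a median log2 difference of -0.13 against -0.02. The largest called were Pde3b (a phosphodiesterase that breaks down cyclic AMP) at -2.87 ± 0.10, Enpp2 (autotaxin, which makes lysophosphatidic acid) at -2.20 ± 0.45 and Naprt (which makes NAD precursor from nicotinic acid) at 1.45 ± 0.25 (SE). Between CD8 and CD4 conventional cells, 48 genes of the lists were tested, 9 higher and 13 lower (45.8% called against 41.9% of all genes), with a median log2 difference of 0.02 against 0.00. Largest among them were Ada (adenosine deaminase) at 1.33 ± 0.14, Dpp4 (CD26, which binds adenosine deaminase) at 1.02 ± 0.10 and Naprt at -0.94 ± 0.28 (SE). By CD62L in CD4 conventional cells, 45 genes of the lists were tested, 16 higher and 13 lower (64.4% called against 47.2% of all genes), with a median log2 difference of -0.03 against 0.02. Leading were Enpp2 at -3.33 ± 0.71, Naprt at -2.52 ± 0.39 and Pde3b at 1.84 ± 0.07 (SE). By CD62L in CD8 cells, 43 genes of the lists were tested, 10 higher and 7 lower (39.5% called against 40.2% of all genes), with a median log2 difference of -0.03 against 0.01. Among those called, the largest were Enpp2 at -5.72 ± 0.62, Slc17a9 (the vesicular nucleotide transporter) at 1.73 ± 0.25 and P2rx4 (another ATP-gated channel) at 1.27 ± 0.21 (SE). The Enpp2 value rests on 1 UMI in all CD62L-high against 193 in all CD62L-low CD8 cells, a ratio of summed CPM of 0.0135 (exact Clopper-Pearson 95% interval 0.000339 to 0.0758, counting error only), so its fitted size depends on the prior count.

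By CD62L in Treg, 32 genes of the lists were tested, 1 higher and 1 lower (6.25% called against 3.94% of all genes), with a median log2 difference of -0.07 against 0.00. The largest called were Slc17a9 at 1.25 ± 0.30 and Crem (a cyclic AMP responsive regulator) at -1.08 ± 0.27 (SE). By expansion in CD4 conventional cells, 44 genes of the lists were tested, 12 higher and 18 lower (68.2% called against 50.2% of all genes), with a median log2 difference of 0.05 against -0.02. Largest among them were Enpp2 at 3.17 ± 0.29, Pde3b at -2.72 ± 0.09 and Slc17a9 at -1.74 ± 0.18 (SE). By expansion in CD8 cells, 42 genes of the lists were tested, 14 higher and 13 lower (64.3% called against 53% of all genes), with a median log2 difference of 0.00 against -0.01. Leading were Enpp2 at 4.02 ± 0.39, Slc17a9 at -2.59 ± 0.21 and Pde3b at -1.79 ± 0.08 (SE). By expansion in Treg, 32 genes of the lists were tested, 1 higher and 3 lower (12.5% called against 8.18% of all genes), with a median log2 difference of -0.01 against -0.01. Among those called, the largest were Pde3b at -1.72 ± 0.34, Dpp4 at -1.32 ± 0.23 and Sirt1 (an NAD-dependent deacetylase) at -0.96 ± 0.29 (SE).

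With an Il21 UMI, 46 genes of the lists were tested, 14 higher and 18 lower (69.6% called against 46.9% of all genes), with a median log2 difference of 0.00 against -0.01. The largest called were Pde3b at -3.30 ± 0.14, Slc17a9 at -1.86 ± 0.16 and Enpp2 at 1.77 ± 0.22 (SE). With a Havcr2 UMI, 43 genes of the lists were tested, 5 higher and 6 lower (25.6% called against 30% of all genes), with a median log2 difference of -0.07 against -0.03. Largest among them were Slc17a9 at -2.37 ± 0.24, Dpp4 at -1.77 ± 0.16 and Enpp1 (an ectoenzyme that cuts ATP to AMP) at -1.23 ± 0.44 (SE). With an Entpd1 UMI in CD62L-low Treg, 27 genes of the lists were tested, 1 higher and 0 lower (3.7% called against 3.62% of all genes), with a median log2 difference of 0.06 against -0.01. It was Crem at 0.70 ± 0.21 (SE). With an Nt5e UMI in CD62L-low CD4 conventional cells, 43 genes of the lists were tested, 7 higher and 13 lower (46.5% called against 30.6% of all genes), with a median log2 difference of -0.02 against -0.01. Among those called, the largest were Pde3b at -2.13 ± 0.11, Ada at -1.39 ± 0.37 and Slc17a9 at -1.19 ± 0.13 (SE).

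For the CD62L effect between lineages, 47 genes of the lists were tested, 4 higher and 2 lower (12.8% called against 5.06% of all genes), with a median log2 difference of 0.00 against 0.00. The largest called were Rhbdf2 (iRhom2, the partner of the CD62L sheddase ADAM17) at -1.25 ± 0.29, Slc29a1 (an adenosine transporter) at 0.85 ± 0.21 and Lrrc8d (a subunit of volume-regulated anion channels) at 0.80 ± 0.21 (SE). For the expansion effect between lineages, 46 genes of the lists were tested, 6 higher and 6 lower (26.1% called against 14.7% of all genes), with a median log2 difference of 0.09 against 0.02. Largest among them were Rhbdf2 at 1.23 ± 0.29, Ada at 1.06 ± 0.32 and Enpp1 at -1.03 ± 0.31 (SE).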

How the data were processed

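Islet T cells of 4 biological replicates were measured by CITE-seq with TCR sequencing. The deposited matrices hold UMI counts per gene and antibody tag for each barcode, made by the authors with Cell Ranger 4.0.0, per the file headers; build mm10 and Seurat are named in the submitters' processing notes. The TCR tables give the authors' called chains per barcode.

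Barcodes with at least 500 UMIs, 300 genes and 1 CD3 UMI, at most 8% mitochondrial UMIs and at most 1 TCR beta chain were kept, without those with 2 or more UMIs over the B cell or the myeloid markers, which also removes such doublets; no doublet caller was run. Clones shared all TRA and TRB nucleotide CDR3s. UMIs were summed per population and library, since cells are not replicates, and tested with edgeR 4.0.16 (filterByExpr, TMM, robust quasi-likelihood F test, library as block) in R 4.3.3, with Benjamini-Hochberg adjustment over all genes tested and a threshold of 0.05 over 12 pairwise comparisons and 2 differences between lineages. The library block rests on both sides of each comparison coming from the same library; deviations of same-library sums correlated at 0.051 to 0.488, over 0.1 in 42 of 48. The fits were also run on simulated counts in which libraries differed only in total UMIs, so the outcome does not cover other library effects. Changes of 2-fold were called in 64.6% (Havcr2) to 96.9% (CD8 against CD4 conventional) of the changed genes. For the CD62L and expansion differences between lineages the shares were 67% and 74%. Totals were 26861163 to 37834174 UMIs a library, and limits from 3 UMIs cover counting error only. Alternatives were other normalisation (library totals), no low filter, DESeq2 1.42.0, no block, each replicate left out and other cell selections; CD11a and single-clone selections were chosen after seeing the data. Named genes were the 6 members and, of the other lists, the 3 called genes with the largest change per comparison. The members and lists were chosen with earlier results of these data known.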

Additional observations from a re-analysis of the deposited data

Results flagged for a closer look

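In 54 groups of 4 libraries, 2 held a library far from the others, and chance gives about 1 in 20. P2rx7 in CD62L-low CD8 cells was at 38.2 CPM in replicate 2 and at 30.3, 30.5 and 29.1 CPM in replicates 1, 3 and 4. Nt5e in CD62L-high Treg was at 28.4 CPM in replicate 4, a sum of 75 cells, and at 52.0, 52.8 and 52.7 CPM in replicates 1, 2 and 3. Between CD8 and CD4 conventional cells the CD62L effect differed by 2.01 for Nt5e and 2.36 for Art2b on the log2 scale, by a test of the difference itself. The expansion effect differed by 2.41 for Entpd1 and -2.27 for Art2b by the same kind of test.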

How the results depend on the processing

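Of 1281 checks of a member's call under an alternative, 1146 kept direction and side of the threshold, 85 lost the call, 45 gained it and 5 reversed. The reversals were Nt5e in Treg against CD4 conventional (-0.14, CD62L-low cells), Entpd1 in CD8 against CD4 conventional (-0.30, 1 cell per clonotype), P2rx7 by expansion in CD8 (0.22 in cells of 2000 to 8000 UMIs, 0.25 without cycling cells) and Cd38 in the CD62L difference between lineages (-1.33 with B cell and myeloid marker barcodes kept). Without the replicate block 76 of 82 member results kept their side of the threshold and 6 lost a call. Counts of genes and members called that moved over 1.5 times were as follows, and the cause was not tested beyond fewer cells entering most selections. Without the replicate block, genes called were 404 (expansion in Treg), 145 (Entpd1 UMI), 263 (the CD62L difference between lineages), 959 (the expansion difference between lineages). Without the replicate block, members called were 3 (Treg against CD4 conventional), 0 (Nt5e UMI). With no low filter, genes called were 561 (CD62L in Treg). With no low filter, members called were 1 (expansion in Treg), 1 (the CD62L difference between lineages). With DESeq2, genes called were 2981 (Treg against CD4 conventional), 3346 (CD62L in CD4 conventional), 157 (CD62L in Treg), 3418 (expansion in CD4 conventional), 204 (expansion in Treg), 89 (Entpd1 UMI), 1269 (Nt5e UMI). With DESeq2, members called were 0 (CD62L in Treg), 0 (Nt5e UMI). In cells of 2000 to 8000 UMIs, genes called were 2271 (Treg against CD4 conventional), 3092 (CD8 against CD4 conventional), 1559 (CD62L in CD8), 807 (CD62L in Treg), 3399 (expansion in CD4 conventional), 2118 (expansion in CD8), 434 (expansion in Treg), 3254 (Il21), 1051 (Havcr2), 29 (Entpd1 UMI), 1286 (Nt5e UMI), 285 (the CD62L difference between lineages), 406 (the expansion difference between lineages). In cells of 2000 to 8000 UMIs, members called were 5 (CD62L in Treg), 2 (Nt5e UMI). With B cell and myeloid marker barcodes kept, genes called were 606 (CD62L in Treg). With B cell and myeloid marker barcodes kept, members called were 1 (expansion in Treg), 0 (Nt5e UMI). In cells with a paired receptor, genes called were 154 (CD62L in Treg), 133 (Entpd1 UMI). In cells with a paired receptor, members called were 0 (CD62L in Treg), 1 (the CD62L difference between lineages). Without cycling cells, genes called were 2609 (Treg against CD4 conventional), 1896 (CD62L in CD8), 651 (CD62L in Treg), 2276 (expansion in CD8), 341 (expansion in Treg), 993 (Havcr2), 98 (Entpd1 UMI), 1742 (Nt5e UMI), 353 (the CD62L difference between lineages), 448 (the expansion difference between lineages). Without cycling cells, members called were 4 (CD62L in Treg), 5 (Il21), 2 (Nt5e UMI). With 1 cell per clonotype, genes called were 2701 (CD8 against CD4 conventional), 1396 (CD62L in CD8), 103 (CD62L in Treg), 3012 (expansion in CD4 conventional), 2242 (expansion in CD8), 302 (expansion in Treg), 2050 (Nt5e UMI), 134 (the CD62L difference between lineages), 88 (the expansion difference between lineages). With 1 cell per clonotype, members called were 3 (CD8 against CD4 conventional), 0 (CD62L in Treg), 1 (Entpd1 UMI), 1 (the CD62L difference between lineages), 1 (the expansion difference between lineages). In CD62L-low cells, genes called were 2901 (expansion in CD4 conventional), 3291 (expansion in CD8), 18 (expansion in Treg), 2792 (Il21), 1325 (Havcr2), 832 (the expansion difference between lineages). In CD62L-low cells, members called were 3 (Havcr2). With at least 2 Foxp3 UMIs, genes called were 17 (CD62L in Treg), 77 (expansion in Treg), 61 (Entpd1 UMI). With at least 2 Foxp3 UMIs, members called were 0 (CD62L in Treg). Where the CD11a antibody count reached 20, members called were 1 (the CD62L difference between lineages). With CD62L cut at its tertiles in each library, members called were 0 (CD62L in Treg). In single clones, genes called were 2674 (CD62L in CD4 conventional), 409 (CD62L in CD8), 132 (the CD62L difference between lineages). In single clones, members called were 1 (CD62L in CD8), 0 (CD62L in Treg), 1 (the CD62L difference between lineages). With expansion from 3 cells, genes called were 147 (expansion in Treg). With expansion from 3 cells, members called were 4 (the expansion difference between lineages). As a mean over cells of each cell's CPM, levels were 16.0 (Adora2a in CD4 conventional CD62L-high), 44.6 (Art2b in CD8), 38.7 (P2rx7 in CD8), 37.4 (Art2b in CD8 CD62L-low), 41.1 (P2rx7 in CD8 CD62L-low), 38.4 (Entpd1 in Treg), 86.5 (Nt5e in Treg), 57.8 (Art2b in Treg), 81.2 (P2rx7 in Treg), 43.6 (Entpd1 in Treg CD62L-low), 97.1 (Nt5e in Treg CD62L-low), 45.6 (Cd38 in Treg CD62L-low), 62.1 (Art2b in Treg CD62L-low), 69.4 (P2rx7 in Treg CD62L-high). Leaving out 1 replicate at a time, genes called ranged over 2814 to 4773 (CD8 against CD4 conventional), 136 to 398 (CD62L in Treg), 282 to 910 (expansion in Treg), 128 to 672 (the CD62L difference between lineages), 709 to 1468 (the expansion difference between lineages). Leaving out 1 replicate at a time, members called ranged over 1 to 1 (CD62L in Treg), 0 to 1 (expansion in Treg), 3 to 6 (Havcr2), 0 to 1 (Entpd1 UMI), 0 to 1 (Nt5e UMI), 1 to 2 (the CD62L difference between lineages), 1 to 3 (the expansion difference between lineages). A count with 1 cell per clonotype could not be had for Havcr2, where too few cells remained. Sums of 24 to 126 Havcr2 cells and 34 to 75 CD62L-high Treg a library limit those comparisons.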
